A study of Mus musculus with 12 samples.

Results

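The transcriptome of mouse ES cells treated with CX-5461 was compared directly with that of ES cells treated with rotenone, a contrast of a nucleolar with a mitochondrial stress. CX-5461 inhibits RNA polymerase I, and rotenone inhibits complex I of the respiratory chain. Of 53715 genes in the ES cell table, the 16995 with a level of at least 1 TPM (transcripts counted per fixed total, so that each library sums to about the same value) in at least 2 of the 4 treated libraries were compared. Each group had 2 libraries, and 2 libraries of untreated cells are given beside them as background but did not enter the comparison.

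All groups were ES cells that the labels call ICM-derived, with no transgene named, and E14 is the wild-type line of the study. The cells were kept in LIF/2i on mouse embryonic fibroblast feeders, which the labels say were removed before poly-A RNA was extracted. By the study's methods the drugs were given for the same time, CX-5461 at the higher concentration, so a difference between them is a difference between these single doses. The treatment text of the labels names CX-5461 alone for every sample, whereas the treatment tag of each sample and its title name its own drug, and these set the groups. The labels name no separate cultures, although the study calls its libraries biologically independent, so p-values measure the spread between these samples, which may be technical.

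RNA polymerase I transcribes the ribosomal RNA genes inside the nucleolus, where ribosomes are assembled. When that transcription stops, free ribosomal proteins are known to bind MDM2 and so to stabilise p53, which switches on genes of cell cycle arrest, cell death and repair. CX-5461 is also known to act on topoisomerase II and on G-quadruplex DNA. Complex I feeds electrons into the respiratory chain and regenerates NAD+, and its block is known to activate the integrated stress response, in which phosphorylated eIF2 alpha favours translation of the factor ATF4. ATF4 raises genes of amino acid synthesis, amino acid import and tRNA charging. Rotenone is also known to bind tubulin.

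The deposited values of the 4 treated libraries each summed to between 999805 and 999895 TPM, and TPM keeps no count of reads, so read depth and counting error are unknown. Genes at 1 TPM or more numbered 16768 and 17104 with CX-5461, 15887 and 15791 with rotenone, and 14521 and 15015 in control. Across genes, the 2 CX-5461 libraries correlated with a Pearson r of 0.987 on the log2(TPM + 1) scale and the 2 rotenone libraries with 0.989, against 0.952 to 0.957 between treatments. The 6 ES cell markers checked had summed levels of 3853 and 3934 TPM with CX-5461, 5216 and 5246 TPM with rotenone, and 6120.4 and 6052 TPM in control. In the test described below, 3 of these 6 were higher with rotenone and 0 higher with CX-5461. Nanog and Sox2 did not pass it, so the sum does not describe each member. Fibroblast markers were present in all libraries and higher after either drug. The 8 defining fibroblast markers summed to 2884 and 3052 TPM with CX-5461, 2485 and 2734 TPM with rotenone, and 615 and 785 TPM in control, a ratio of 1.14 between CX-5461 and rotenone, and none was at 0. In bulk samples fewer cells of a type and less RNA per cell cannot be told apart, and the part of fibroblast RNA in the results below was not tested.

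The difference between the drugs was broad and leaned towards CX-5461. Of the 16995 genes, 3965 (23.3%) were higher with CX-5461 and 1587 (9.34%) higher with rotenone at an adjusted p under 0.05 (limma on log2(TPM + 1), Benjamini-Hochberg). Differences are given on that log2 scale as CX-5461 minus rotenone, so that a negative value marks a gene higher with rotenone, and they understate changes of genes with low TPM. Large differences lay mostly on one side. A difference of at least 1 was seen for 1593 called genes higher with CX-5461 and 221 higher with rotenone, and one of at least 2 for 248 and 13. A gene could pass the level filter through 1 drug alone: 940 genes reached 1 TPM in both CX-5461 libraries and in neither rotenone library, and 205 the reverse. Of the 940, 659 were called higher with CX-5461, and of the 205, 96 were called higher with rotenone.

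The lean towards CX-5461 depended on the scaling of the libraries. The median difference of all tested genes was 0.12, and CX-5461 accounted for 71.4% of the called genes. Its share was 58.7% with median-ratio scaling and 49.8% with quantile scaling, which moved the median by -0.17 to -0.05. It was 49.8% after the trend with exon length was removed, which moved the median by -0.14. Leaving out 1 library, which leaves that drug with a single library assumed to vary like the other group, cut the called genes to 2874 without CX-5461 replicate 1, 3117 without CX-5461 replicate 2, 3042 without rotenone replicate 1 and 2803 without rotenone replicate 2. Counts of 3 or more members of a list are given below without each library in turn, in this order, where they moved by more than 1.5 times. The values of gene lists are therefore given relative to the median of all genes, and counts under the other scalings stand beside those that they move.

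**Figure D1:**
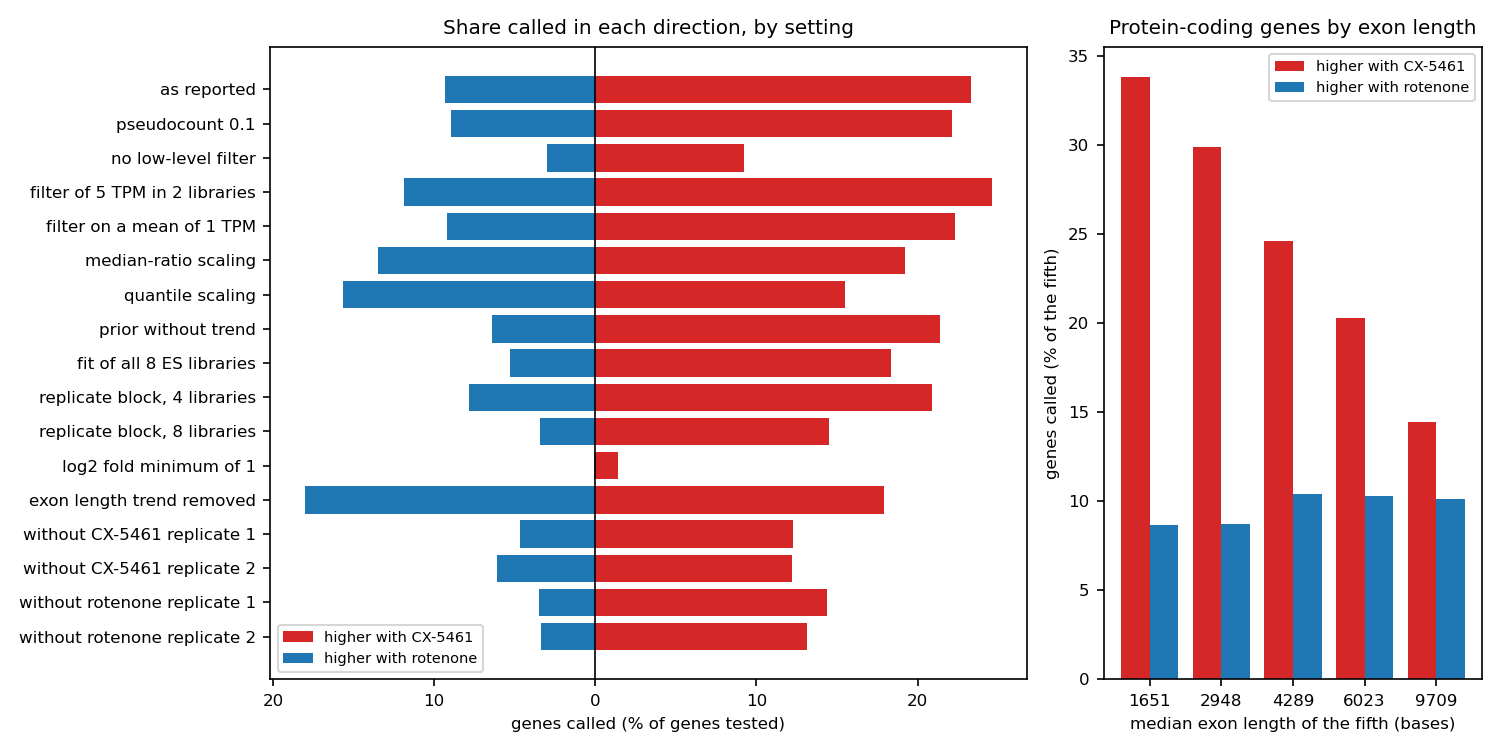
The left panel shows the percentage of tested genes called higher with CX-5461 (red, to the right) or with rotenone (blue, to the left) in the comparison as reported and under 16 other settings. The right panel shows the same percentages for quintiles of the protein-coding genes, ordered by the summed length of their exons. The share higher with CX-5461 falls from 33.8% in the shortest quintile to 14.5% in the longest, whereas the share higher with rotenone stays between 8.65% and 10.4%.

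Gene length moved with the direction of the difference. Among 13862 protein-coding genes, 33.8% of the quintile with the shortest exons (median 1651 bases) and 14.5% of the quintile with the longest (median 9709 bases) were higher with CX-5461. The shares higher with rotenone were 8.65% and 10.1%. The level of expression moved with it as well. Genes higher with rotenone made up 2.74% of the quintile with the lowest levels and 19.6% of the quintile with the highest. The part of fragment length or RNA integrity in these trends was not tested.

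A total of 39 gene lists, drawn up from background knowledge, was used to describe the difference, and 1363 of their 1432 matched genes passed the level filter. Lists of 2-cell stage genes, epidermal genes, tubulins and p53 targets in cell death lay furthest on the CX-5461 side. Lists of amino acid supply, tRNA charging, sterol synthesis, mitosis and the cytosolic ribosome lay furthest on the rotenone side, the last of these only without quantile scaling. Genes of RNA polymerase I, of ribosome assembly and of the nuclear part of complex I, which are closest to the targets of the drugs, lay within 0.15 of the median of all genes. These counts were read against the 23.3% and 9.34% of all genes called in each direction. The lists were not matched for level. In the protein-coding quintile with the highest levels, 19.6% of genes were higher with rotenone. Some members passed the level filter through CX-5461 alone. Besides those given below, they were 1 each in the tubulin, formative and primed epiblast, trophectoderm, primitive endoderm, immediate early and Wnt target lists.

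**Figure D2:**
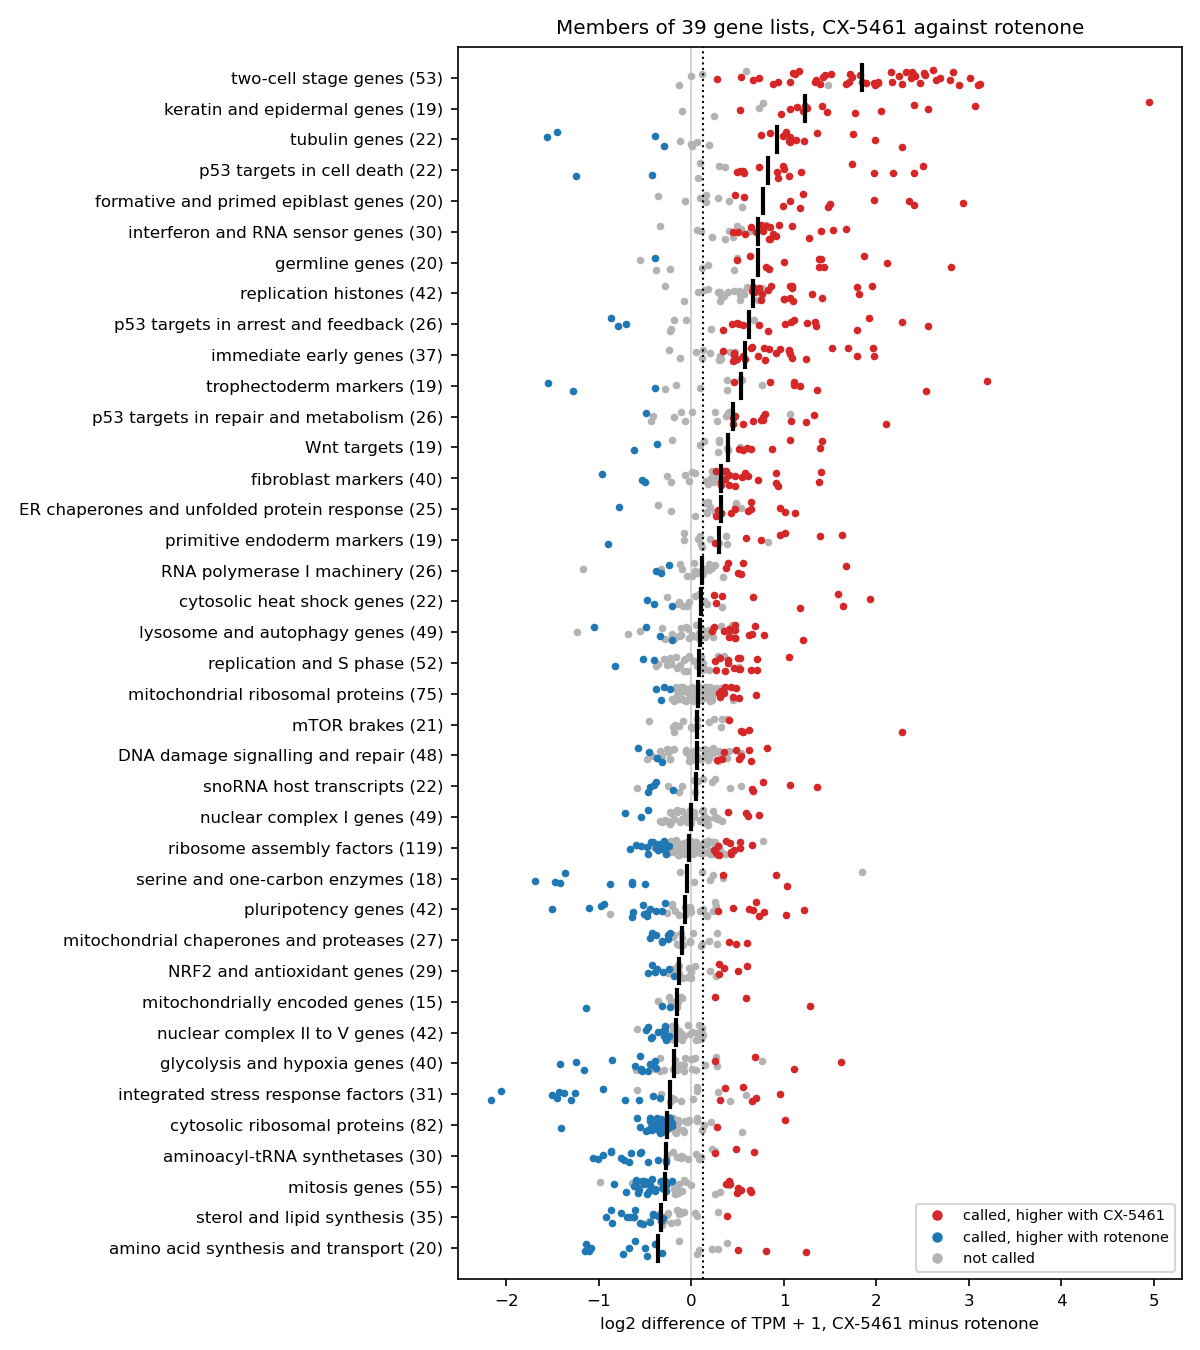
Each row is a gene list with its number of tested members in brackets, and each point is a member placed by its log2 difference of TPM + 1 (CX-5461 minus rotenone). Red and blue points are called members, grey points are not called, black bars are list medians and the dotted line is the median of all tested genes (0.12). The 2-cell stage list has the highest median (1.84) and the list of amino acid synthesis and transport the lowest (-0.36).

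The genes with the largest differences towards CX-5461 included genes of stratified epithelium. Krt5 (ENSMUSG00000061527.7, chromosome 15, 101707070 to 101712898 on GRCm38), a keratin of basal epidermal cells, was at 93.04 and 80.98 TPM with CX-5461, 1.54 and 2.18 TPM with rotenone and 0.292 and 0.313 TPM in control (log2 difference 4.95, SE 0.16, adjusted p = 8.09e-04). Sbsn, a secreted epidermal protein, was at 276 and 237 TPM with CX-5461, 19.3 and 22.9 TPM with rotenone and 6.82 and 5.05 TPM in control (log2 difference 3.54, SE 0.12, adjusted p = 8.09e-04), and the neighbouring gene Dmkn, which encodes the epidermal protein dermokine, at 17.6 and 16.3 TPM with CX-5461, 0.192 and 0.188 TPM with rotenone and 0.429 and 0.0789 TPM in control (log2 difference 3.91, SE 0.16, adjusted p = 8.09e-04). These genes were picked for the size of their difference between the drugs. For each of them rotenone lay far closer to control than CX-5461 did. Fgfbp1, which encodes a carrier of fibroblast growth factors, was at 127 and 109.9 TPM with CX-5461 and 11.8 and 7.87 TPM with rotenone (3.48, SE 0.20, adjusted p = 9.91e-04). Neb, the giant nebulin of muscle thin filaments, was at 66.6 and 52.7 TPM with CX-5461 and 1.33 and 1.27 TPM with rotenone (4.71, SE 0.16). Them5, a mitochondrial acyl-CoA thioesterase, was at 90.02 and 83.9 TPM with CX-5461 and 2.59 and 2.15 TPM with rotenone (4.71, SE 0.13), and Rbp2, a cellular retinol-binding protein, at 17.2 and 16.3 TPM with CX-5461 and 0.461 and 0.471 TPM with rotenone (3.59, SE 0.15). The pseudogenes AU015228 (difference 3.98) and Gm11543 (difference 3.43) were also among the leading genes. Sbsn overlaps Tmem147os on the same strand, so the level of Sbsn is uncertain.

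A few further entries at the CX-5461 end lie within another gene, and their levels are uncertain. The largest difference was that of AC140267.1 (5.19), an entry inside Mief1, at 30.5 and 41.1 TPM with CX-5461 and close to 0 with rotenone, but at 1.61 and 13.3 TPM in the control libraries. The small nucleolar RNA gene Gm22879 lies in Rpl7a (3.46, SE 0.53). Kctd12, which encodes a subunit of GABA-B receptors, was at 14.3 and 16.1 TPM with CX-5461 and listed at 0 in both rotenone libraries, whereas the microRNA gene Mir5130 inside it was at 0.293 and 0.298 TPM with CX-5461 and 5.69 and 5.31 TPM with rotenone. These overlapping entries had opposite orders, the division of reads between them is uncertain, and neither is read as a change.

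The genes with the largest differences towards rotenone had varied roles, and several of them lie within other genes. Pck2, the mitochondrial phosphoenolpyruvate carboxykinase, was at 17.96 and 17.5 TPM with CX-5461, 73.2 and 81.5 TPM with rotenone and 41.2 and 43.4 TPM in control (log2 difference -2.06, SE 0.10, adjusted p = 8.09e-04). Chac1, an enzyme that degrades glutathione, was at 4.803 and 6.86 TPM with CX-5461, 27.05 and 31.9 TPM with rotenone and 23.5 and 21.1 TPM in control (log2 difference -2.17, SE 0.19, adjusted p = 0.00224). Both stood below control with CX-5461. Sfrp1, a secreted Wnt antagonist, was at 10.1 and 12.1 TPM with CX-5461, 58.1 and 56.9 TPM with rotenone and 29.3 and 38.4 TPM in control (log2 difference -2.28, SE 0.12, adjusted p = 9.53e-04). Bola1, a mitochondrial protein of iron-sulphur cluster maturation, was at 7.22 and 8.97 TPM with CX-5461, 35.4 and 39.3 TPM with rotenone and 60.8 and 47.5 TPM in control (log2 difference -2.08, SE 0.14, adjusted p = 0.0014), so that it was lowest with CX-5461. Ubap1l had a difference of -2.22. Nek2, a kinase of centrosome separation, was at 1.66 and 2.25 TPM with CX-5461 and 9.69 and 24.4 TPM with rotenone (-2.49, SE 0.42). The mitochondrial tRNA genes mt-Tg (-2.28, SE 0.23) and mt-Tr (-2.06, SE 0.30) were also among these genes. The call was lost for Nek2 without either CX-5461 library (adjusted p up to 0.0768) and Snora9 without either rotenone library (adjusted p up to 0.114). Snora7a lies in Rpl32, Snora9 in Snhg15 and Gm21983 across Rab4b and Mia, so their levels are uncertain. Gm21983 was listed at 0 in both CX-5461 libraries but also in 1 of the 2 control libraries.

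Genes of the integrated stress response were more often higher with rotenone than genes in general. Genes that supply amino acids and charge tRNAs followed the same order. With CX-5461, serine and one-carbon enzymes and tRNA synthetases stood more often below control than above it. Among integrated stress response factors, 6 were higher with CX-5461 and 13 higher with rotenone of 31 tested members (median -0.35 relative to all genes). The share higher with CX-5461, 19.4%, was below the 23.3% of all genes, and that higher with rotenone, 41.9%, above the 9.34%. Both drugs were also compared with the same 2 control libraries in a fit of all 8 ES cell libraries, which called 44.0% of genes above and 11.0% below control for CX-5461 and 32.3% and 9.54% for rotenone. Of these factors, 16 lay above control and 9 below it with CX-5461, and 22 above and 1 below with rotenone.

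Beside Chac1 and Pck2, differences of over 1 in this list included those of transcriptional regulators and of enzymes of proline and alanine synthesis. Nupr1, a stress-induced chromatin protein, was at 59.01 and 55.2 TPM with CX-5461, 166 and 163 TPM with rotenone and 126 and 99.6 TPM in control (log2 difference -1.51, SE 0.07, adjusted p = 8.16e-04). Trib3, a pseudokinase that restrains ATF4 and AKT, was at 35.8 and 32.3 TPM with CX-5461 and 91.99 and 98.1 TPM with rotenone (-1.45, SE 0.09). Aldh18a1 and Pycr1, which make proline, had differences of -1.43 and -1.38, and Gpt2, the mitochondrial alanine transaminase, one of -1.30. The mRNA of Atf4 itself was at 229 and 226 TPM with CX-5461, 378 and 374 TPM with rotenone and 304 and 342 TPM in control (log2 difference -0.72, SE 0.06, adjusted p = 0.00172). Atf5, a related factor linked to mitochondrial stress, was at 139.5 and 141 TPM with CX-5461, 201 and 216 TPM with rotenone and 94.5 and 99.9 TPM in control (-0.57, SE 0.07). Atf4 thus stood below control with CX-5461 and above it with rotenone, and Atf5 above control with both.

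The fewer factors higher with CX-5461 included some that are also immediate or p53-linked genes. Atf3, a stress-induced repressor, was at 83.9 and 86.5 TPM with CX-5461, 47.4 and 39.5 TPM with rotenone and 14.03 and 16.00 TPM in control (log2 difference 0.96, SE 0.11, adjusted p = 0.00412). Ddit4, an inhibitor of mTOR signalling also called REDD1, was at 286 and 256 TPM with CX-5461, 182 and 187 TPM with rotenone and 46.7 and 56.4 TPM in control (0.55, SE 0.08), and Gadd45a, a growth arrest protein, at 191 and 186 TPM with CX-5461, 120.3 and 119 TPM with rotenone and 64.3 and 64.1 TPM in control (0.65, SE 0.06). Both drugs stood above control for these genes, and CX-5461 stood higher. Ddit3, which encodes CHOP, was at 131 and 140.3 TPM with CX-5461 and 129.6 and 132 TPM with rotenone (0.06, SE 0.07, adjusted p = 0.567), and Sesn2, a leucine sensor, at 252 and 266 TPM with CX-5461 and 245 and 249.5 TPM with rotenone (0.07, SE 0.06, adjusted p = 0.452). Gdf15, a secreted stress hormone, was at 73.7 and 66.1 TPM with CX-5461 and 53.4 and 61.1 TPM with rotenone (adjusted p = 0.0939). Ddit3, Sesn2 and Gdf15 were chosen after their values were seen, as members that did not pass the test, and all 3 lay above control in both treatments.

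**Figure D3:**
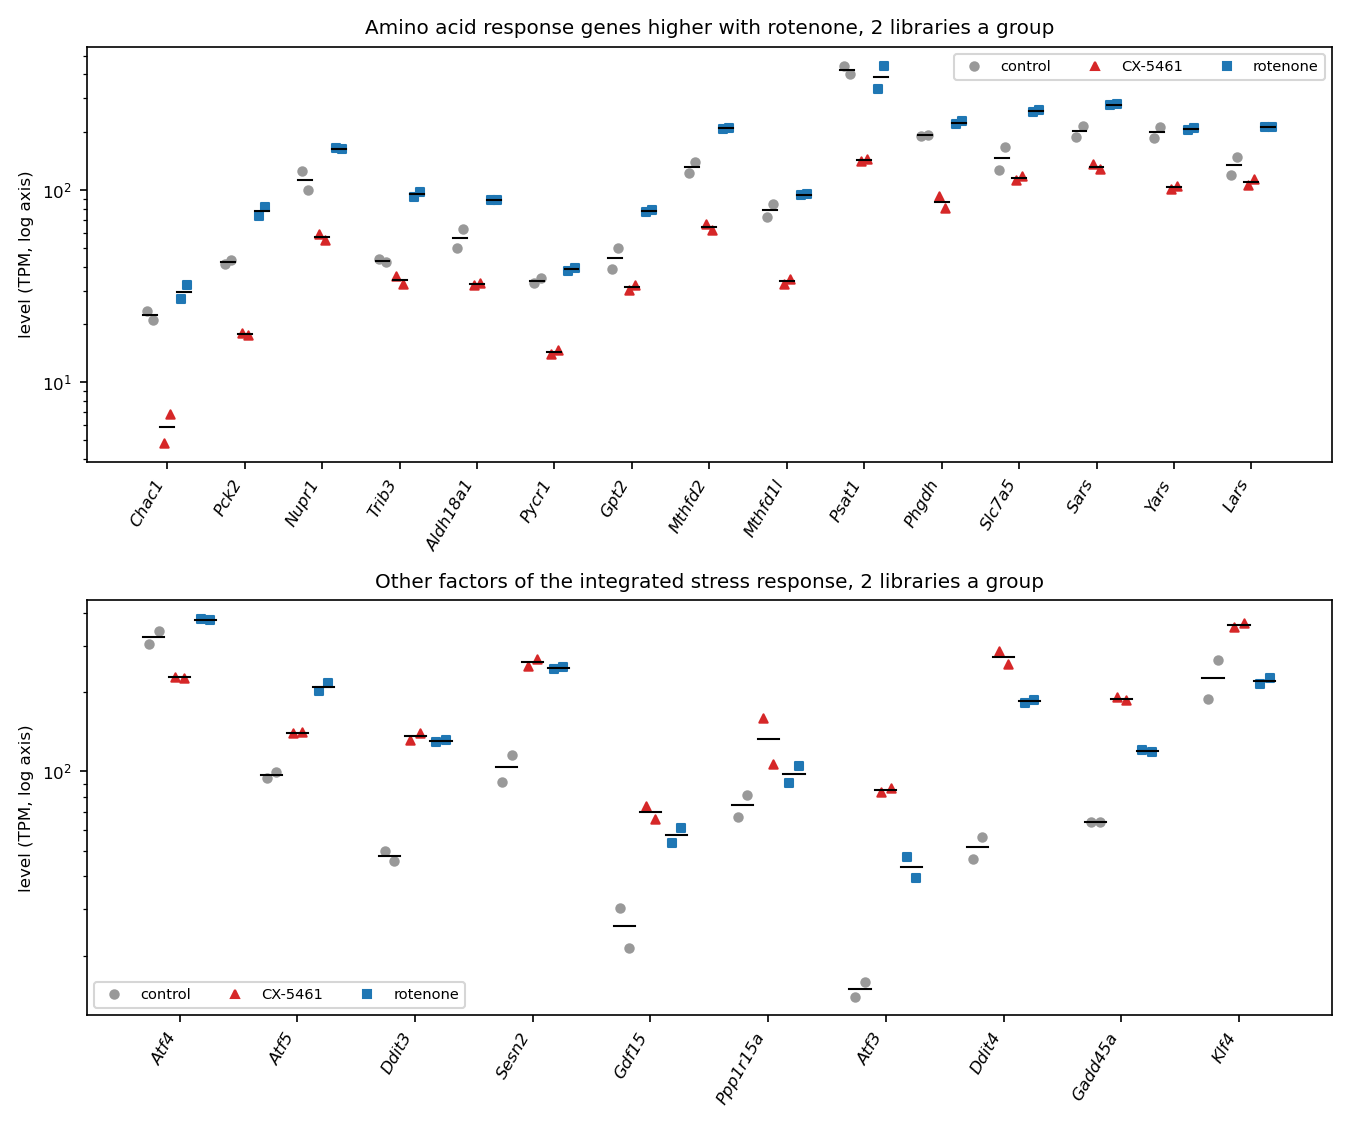
Levels in TPM (log axis) of genes of the integrated stress response in the 2 libraries of each group, with black bars for the group means. The upper panel shows 15 genes chosen because they were higher with rotenone, so their shared order follows from the choice. An example is Pck2 at 17.96 and 17.5 TPM with CX-5461 and 73.2 and 81.5 TPM with rotenone. Genes of these lists with the opposite order, such as Aldh1l1 and Slc43a1, are not in that panel. In the lower panel Atf4 and Atf5 keep that order, Ddit3 and Sesn2 nearly coincide, and Atf3, Ddit4, Gadd45a and Klf4 are highest with CX-5461.

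The metabolic genes of the response showed the same order. Among serine and one-carbon enzymes, 3 were higher with CX-5461 and 8 higher with rotenone of 18 tested members (median -0.17 relative to all genes). Against control, 4 lay above control and 9 below it with CX-5461, and 4 above and 3 below with rotenone. Mthfd2, the mitochondrial folate dehydrogenase, was at 66.3 and 61.7 TPM with CX-5461, 207 and 211 TPM with rotenone and 123 and 141 TPM in control (log2 difference -1.70, SE 0.07, adjusted p = 8.09e-04). Mthfd1l, its partner synthetase (-1.47, SE 0.08), and the serine synthesis enzymes Psat1 (-1.42, SE 0.13) and Phgdh (-1.37, SE 0.09) followed. All 4 were below control in both CX-5461 libraries. The cytosolic dehydrogenase Aldh1l1 was the exception, at 105 and 95.98 TPM with CX-5461, 46.9 and 50.6 TPM with rotenone and 18.6 and 23.5 TPM in control (log2 difference 1.03, SE 0.09, adjusted p = 0.00206).

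Importers of amino acids were among the genes higher with rotenone. In the list of amino acid synthesis and transport, 3 were higher with CX-5461 and 11 higher with rotenone of 20 tested members (median -0.48 relative to all genes). Against control, 6 lay above control and 4 below it with CX-5461, and 10 above and 3 below with rotenone. Slc7a5, the large neutral amino acid transporter LAT1, was at 113 and 119 TPM with CX-5461, 255 and 260.5 TPM with rotenone and 128 and 167 TPM in control (log2 difference -1.15, SE 0.06, adjusted p = 9.91e-04). Slc7a3, a transporter of cationic amino acids, was at 42.05 and 44.2 TPM with CX-5461, 95.8 and 96.8 TPM with rotenone and 99.1 and 133 TPM in control (-1.14, SE 0.07). Slc7a5 stood well above control with rotenone, whereas Slc7a3 was just below control with rotenone and low with CX-5461. Slc43a1, a transporter of branched-chain amino acids, had the opposite order, at 27.2 and 29.4 TPM with CX-5461, 11.4 and 11.5 TPM with rotenone and 16.4 and 18.1 TPM in control (log2 difference 1.23, SE 0.11, adjusted p = 0.00222). Asns, the asparagine synthetase, was at 411 and 453 TPM with CX-5461 and 591 and 636 TPM with rotenone (-0.51, SE 0.08).

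The aminoacyl-tRNA synthetases, which load tRNAs, followed. By count, 3 were higher with CX-5461 and 15 higher with rotenone of 30 tested members (median -0.39 relative to all genes). Without each library in turn, 0, 1, 0 and 0 were higher with CX-5461. The seryl enzyme Sars was at 137 and 128 TPM with CX-5461, 277 and 280.5 TPM with rotenone and 189 and 214 TPM in control (log2 difference -1.07, SE 0.07, adjusted p = 0.00112). The tyrosyl enzyme Yars (-1.01, SE 0.06) and the leucyl enzyme Lars (-0.95, SE 0.07) were similar. These enzymes act in the cytosol, and among their mitochondrial counterparts Mars2 (0.67, SE 0.16, adjusted p = 0.0281) and Hars2 (0.48) were instead higher with CX-5461 while Wars2 (-0.56) was higher with rotenone. When single libraries were left out, the call was lost for Mars2 without any 1 of the 4 libraries (adjusted p up to 0.117). Against control, 3 lay above control and 11 below it with CX-5461, and 10 above and 2 below with rotenone.

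Promoters of these genes were searched for the ATF4 composite element, spelled TGATGNAA and read on both strands. Windows ran from 250 bases before to 50 after the annotated start, from RefSeq on GRCm38.p6, and 11289 of the tested genes had one. The element was found in 2.34% of these windows, in 2.68% of those of genes higher with CX-5461 and in 3.56% of those of genes higher with rotenone. In the 4 lists of stress factors, one-carbon enzymes, amino acid supply and tRNA synthetases, it was found in 13 of 35 windows of members higher with rotenone and in 2 of 40 windows of the other tested members. The 13 were Aars, Asns, Chac1, Gars, Got1, Iars, Nupr1, Pck2, Pycr1, Slc1a4, Tars, Trib3 and Yars, and the 2 were Atf3 and Slc7a11. The lists were drawn up from known ATF4 biology, so this count is a description. The stretches of 100 bases below lie upstream of the start and are shown because they hold the element in genes that separate the drugs. They run 5′ to 3′ on the strand of the gene, with the element in capitals as it reads on that strand, so that the first 5 show its reverse complement.
Chac1 (chr2:119351003-119351102, forward strand, first base of the element 193 bases before the start): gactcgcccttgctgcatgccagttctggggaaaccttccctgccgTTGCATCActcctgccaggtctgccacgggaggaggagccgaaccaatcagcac
Pck2 (chr14:55540117-55540216, forward strand, 103 bases before the start): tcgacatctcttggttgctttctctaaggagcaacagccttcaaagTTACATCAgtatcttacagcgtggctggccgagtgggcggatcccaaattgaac
Nupr1 (chr7:126625527-126625626, reverse strand, 110 bases before the start): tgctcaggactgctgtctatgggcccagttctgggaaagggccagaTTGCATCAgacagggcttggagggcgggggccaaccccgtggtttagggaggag
Aars (chr8:111033684-111033783, forward strand, 112 bases before the start): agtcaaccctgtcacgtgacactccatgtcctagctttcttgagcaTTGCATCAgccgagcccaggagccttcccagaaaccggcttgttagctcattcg
Gars (chr6:55037901-55038000, forward strand, 30 bases before the start): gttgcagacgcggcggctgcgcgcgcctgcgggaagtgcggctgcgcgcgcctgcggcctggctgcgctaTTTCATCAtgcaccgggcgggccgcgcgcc
Asns (chr6:7693210-7693309, reverse strand, 23 bases before the start): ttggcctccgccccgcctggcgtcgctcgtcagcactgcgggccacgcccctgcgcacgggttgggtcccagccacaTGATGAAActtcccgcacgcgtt

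Shares are also given for the other motifs searched. The antioxidant response element TGACNNNGC was found in 14.8% of all windows, 14.6% of those higher with CX-5461 and 15.5% of those higher with rotenone. The E-box CACGTG, bound by MYC and by TFEB, was found in 10.1%, 8.75% and 11.8%. The AP-1 element TGANTCA was found in 4.93% of all windows, in 6.58% of those higher with CX-5461, where it was the more frequent, and in 4.41% of those higher with rotenone. A match is not a bound site, and no test was made of these shares.

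Glycolysis and hypoxia genes were more often higher with rotenone. There, 4 were higher with CX-5461 and 14 higher with rotenone of 40 tested members (median -0.31 relative to all genes), against 3 and 22 with the length trend removed. With 1 library left out, the counts were 2, 2, 3 and 2 higher with CX-5461. Pfkp, a phosphofructokinase, was at 53.04 and 54.96 TPM with CX-5461, 129 and 166 TPM with rotenone and 95.4 and 135 TPM in control (log2 difference -1.42, SE 0.13, adjusted p = 0.00259), and Bnip3, a mitophagy receptor induced by hypoxia, at 34.7 and 31.3 TPM with CX-5461, 82.2 and 77.98 TPM with rotenone and 60.4 and 52.9 TPM in control (log2 difference -1.25, SE 0.09, adjusted p = 0.0015). Slc16a3, the lactate exporter MCT4, had a difference of -1.16. Not all members took this side. Car12, a membrane carbonic anhydrase, was at 13.5 and 12.6 TPM with CX-5461, 4.22 and 3.04 TPM with rotenone and 0.904 and 1.48 TPM in control (log2 difference 1.62, SE 0.18, adjusted p = 0.00393), and Eno2, the neuronal enolase, had a difference of 1.11. Against control, 10 lay above control and 14 below it with CX-5461, and 11 above and 4 below with rotenone.

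Genes of sterol and lipid synthesis leaned to rotenone. In this list 1 was higher with CX-5461 and 18 higher with rotenone of 35 tested members (median -0.45 relative to all genes). In the fits without 1 library, 11, 17, 10 and 8 were higher with rotenone. Cyp51, the lanosterol demethylase, was at 82.9 and 90.6 TPM with CX-5461, 167 and 164 TPM with rotenone and 79.04 and 85.05 TPM in control (log2 difference -0.92, SE 0.07, adjusted p = 0.00186). Sqle, the squalene epoxidase, was at 113 and 111 TPM with CX-5461, 208 and 199.9 TPM with rotenone and 142 and 148 TPM in control (-0.86, SE 0.06), and Mvd, the mevalonate decarboxylase, at 58.3 and 56.5 TPM with CX-5461 and 106 and 106 TPM with rotenone (-0.87, SE 0.07). The single member higher with CX-5461 was Srebf1, the factor that drives fatty acid synthesis genes (0.39, SE 0.07, adjusted p = 0.0163). On leaving out libraries, the call was lost for Srebf1 without any 1 of the 4 libraries (adjusted p up to 0.0993).

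NRF2 target and antioxidant genes were called in both directions, and the side with more calls depended on the setting. The share higher with rotenone was 24.1%, against 9.34% of all genes. It was 19.6% in the protein-coding quintile with the highest levels. In this list 5 were higher with CX-5461 and 7 higher with rotenone of 29 tested members (median -0.25 relative to all genes). The counts were 5 and 5 with quantile scaling and 2 and 14 with the length trend removed. A prior without trend gave 2 and 1, and the fit of all 8 libraries 4 and 2. The relative median was -0.03 with quantile scaling. Leaving out each library left 2, 5, 2 and 2 higher with CX-5461 and 3, 2, 1 and 2 higher with rotenone. Nqo1, a quinone reductase and classic NRF2 target, was at 201 and 189.9 TPM with CX-5461, 141 and 134 TPM with rotenone and 59.7 and 57.2 TPM in control (log2 difference 0.50, SE 0.07, adjusted p = 0.00648). Sod2, the mitochondrial superoxide dismutase, was at 124 and 129.9 TPM with CX-5461, 176 and 159 TPM with rotenone and 208 and 197 TPM in control (-0.40, SE 0.08). Nqo1 stood above control with either drug and highest with CX-5461, whereas Sod2 stood below control with either drug and lowest with CX-5461. G6pdx, the first enzyme of the pentose phosphate pathway, was higher with CX-5461 (0.60, SE 0.07).

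Few genes of complex I, the target of rotenone, passed the test between the drugs. Among nuclear complex I genes, 4 were higher with CX-5461 and 3 higher with rotenone of 49 tested members (median -0.13 relative to all genes), against 3 and 9 with median-ratio scaling, 4 and 5 with quantile scaling and 3 and 17 with the length trend removed. These became 5, 3, 2 and 2 higher with rotenone without each library in turn. The called members included assembly factors on both sides. Acad9 was at 50.8 and 53.4 TPM with CX-5461 and 33.04 and 29.1 TPM with rotenone (log2 difference 0.73, SE 0.10, adjusted p = 0.00663) and Ndufaf5 at 19.5 and 23.1 TPM with CX-5461 and 34.3 and 36.8 TPM with rotenone (log2 difference -0.72, SE 0.12, adjusted p = 0.0114). Timmdc1, another assembly factor, had a difference of 0.61. Among genes of complexes II to V, 0 were higher with CX-5461 and 12 higher with rotenone of 42 tested members (median -0.28 relative to all genes), against 0 and 22 with the length trend removed. Without each library in turn, 11, 7, 2 and 1 were higher with rotenone. That median was -0.07 with quantile scaling. Members were Cox5a, a subunit of cytochrome oxidase, at 615 and 550.0 TPM with CX-5461, 810.1 and 800.5 TPM with rotenone and 1293 and 1088 TPM in control (log2 difference -0.47, SE 0.07, adjusted p = 0.00881), Cox7c (-0.49) and the ATP synthase subunit Atp5c1 (-0.43). For Cox5a both drugs lay below control, CX-5461 further. The call was lost for Ndufaf5 without rotenone replicate 2 (adjusted p = 0.0621), Cox5a without either rotenone library (adjusted p up to 0.0521) and Cox7c without either rotenone library (adjusted p up to 0.0781).

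The genes of the mitochondrial genome moved unevenly. Of the 15 ribosomal RNA and protein genes, 3 were higher with CX-5461 and 3 higher with rotenone, against 1 and 8 with the length trend removed, and 2, 1, 1 and 1 were higher with rotenone without each library in turn. The ribosomal RNA genes mt-Rnr1, at 552 and 472 TPM with CX-5461, 208 and 210.1 TPM with rotenone and 445 and 252 TPM in control (log2 difference 1.29, SE 0.09, adjusted p = 0.0014), and mt-Rnr2, at 804 and 914 TPM with CX-5461, 539 and 605 TPM with rotenone and 473 and 405 TPM in control (log2 difference 0.59, SE 0.09, adjusted p = 0.00972), were higher with CX-5461. Among the protein genes, mt-Nd3, a complex I subunit, was at 9.48 and 9.701 TPM with CX-5461 and 25.7 and 19.4 TPM with rotenone (-1.14, SE 0.16), while mt-Co1 (-0.23) and mt-Co2 (-0.32) of cytochrome oxidase also stood higher with rotenone and mt-Nd1 (0.26) higher with CX-5461. Of 21 mitochondrial tRNA genes, 10 were higher with rotenone and 0 higher with CX-5461, against 10 and 0 with quantile scaling. The summed level of the tRNA genes was 1768 and 1996 TPM with CX-5461, 2213 and 2558 TPM with rotenone, and 2399 and 1523 TPM in control. The call of mt-Rnr2 was lost with the length trend removed (adjusted p = 0.0512), and that of mt-Nd3 was lost without CX-5461 replicate 1 (adjusted p = 0.0504). Poly-A libraries capture these RNAs poorly, and TPM values of such short genes are uncertain.

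Genes of mitochondrial protein quality control leaned to rotenone in the comparison as reported. Among mitochondrial chaperones and proteases, 3 were higher with CX-5461 and 8 higher with rotenone of 27 tested members (median -0.22 relative to all genes). A prior without trend gave 2 and 3, and the fit of all 8 libraries 2 and 2. With 1 library left out, the counts were 1, 2, 1 and 3 higher with CX-5461 and 3, 4, 2 and 1 higher with rotenone. Tomm40, the channel of the outer membrane translocase, was at 272 and 257 TPM with CX-5461, 365 and 355 TPM with rotenone and 469 and 468 TPM in control (log2 difference -0.44, SE 0.06, adjusted p = 0.00676), and Hspa9, the matrix Hsp70, had a difference of -0.39. Pmpca, a subunit of the processing peptidase, was at 191 and 196 TPM with CX-5461, 141 and 135 TPM with rotenone and 106 and 121 TPM in control (log2 difference 0.48, SE 0.06, adjusted p = 0.00601), and the protease gene Htra2 (0.60, SE 0.17) was also higher with CX-5461, a call lost with median-ratio scaling, with quantile scaling and without the length trend (adjusted p = 0.0952, 0.0968 and 0.147). Among mitochondrial ribosomal proteins, 10 were higher with CX-5461 and 4 higher with rotenone of 75 tested members (median -0.06 relative to all genes), against 4 and 5 with median-ratio scaling and 4 and 18 with the length trend removed. In the fits without 1 library, 5, 6, 3 and 1 were higher with CX-5461 and 1, 0, 0 and 0 higher with rotenone. Mrpl16 was at 118 and 103 TPM with CX-5461 and 68.2 and 67.4 TPM with rotenone (log2 difference 0.70, SE 0.09, adjusted p = 0.00576) and Mrpl12 at 132 and 113 TPM with CX-5461 and 159 and 161 TPM with rotenone (log2 difference -0.39, SE 0.09, adjusted p = 0.0304). Leaving out libraries, the call was lost for Htra2 without either CX-5461 library or rotenone replicate 1 (adjusted p up to 0.185) and Mrpl12 without CX-5461 replicate 2 or either rotenone library (adjusted p up to 0.122).

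Cytosolic ribosomal protein genes were lower with CX-5461. Of the 82 members, 45 were higher with rotenone and 2 higher with CX-5461 (median -0.38 relative to all genes), although with quantile scaling the counts were 14 and 4 and the relative median -0.05, and with the length trend removed they were 70 and 1 and -0.46. Rpl26, which also binds p53 mRNA, was at 1262 and 1167 TPM with CX-5461, 1798 and 1850.2 TPM with rotenone and 2623 and 2181 TPM in control (log2 difference -0.59, SE 0.06, adjusted p = 0.00345), below control in both treatments. Rpl22l1, a paralog of Rpl22, was at 168 and 135 TPM with CX-5461, 408 and 393 TPM with rotenone and 423 and 243 TPM in control (log2 difference -1.41, SE 0.11, adjusted p = 0.00186), within the range of control with rotenone. Rpl17 had the reverse order, at 776 and 735 TPM with CX-5461, 313 and 444 TPM with rotenone and 1316 and 1169 TPM in control (log2 difference 1.02, SE 0.17, adjusted p = 0.0106). The list summed to 91745 and 84768 TPM with CX-5461, 103549 and 108829 TPM with rotenone, and 136382 and 120264 TPM in control. Without each library in turn, 40, 17, 8 and 5 members were higher with rotenone, and the call was lost for Rpl17 without either CX-5461 library (adjusted p up to 0.0712). A prior without trend gave 8 and the fit of all 8 libraries 19.

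Genes of the machinery that CX-5461 acts upon were called about as often as genes in general. Among its genes, 6 were higher with CX-5461 and 3 higher with rotenone of 26 tested members (median -0.01 relative to all genes). Leaving out each library left 2, 1, 2 and 2 higher with CX-5461 and 1, 3, 0 and 0 higher with rotenone. Ubtfl1, a UBTF-like gene of the early embryo that also stands in the 2-cell list, was at 5.896 and 4.67 TPM with CX-5461, 1.16 and 0.793 TPM with rotenone and 0.229 and 0.672 TPM in control (log2 difference 1.67, SE 0.20, adjusted p = 0.00487). Cavin1, a caveolar protein also known as a transcript release factor of polymerase I and abundant in fibroblasts, was at 78.8 and 77.5 TPM with CX-5461, 56.98 and 50.8 TPM with rotenone and 19.9 and 20.5 TPM in control (log2 difference 0.53, SE 0.09, adjusted p = 0.0109). Taf1d, a subunit of the promoter selectivity factor, was at 205 and 221 TPM with CX-5461 and 281 and 273 TPM with rotenone (log2 difference -0.38, SE 0.07, adjusted p = 0.013). Ubtf, which encodes the polymerase I activator UBF, was also higher with rotenone (-0.33, SE 0.08). Among subunit genes, Polr1e (0.56, SE 0.16, adjusted p = 0.0466) and Cd3eap (0.39) were higher with CX-5461, and Polr2e (-0.24), shared with the other polymerases, higher with rotenone. The call of Polr1e was lost with median-ratio scaling, with quantile scaling and without the length trend (adjusted p = 0.0731, 0.0726 and 0.11), and the call was lost for Polr1e without either CX-5461 library or rotenone replicate 1 (adjusted p up to 0.177), Cavin1 without either CX-5461 library or rotenone replicate 2 (adjusted p up to 0.0605) and Taf1d without either rotenone library (adjusted p up to 0.0806) as well. Polr1a, the largest subunit (0.19, adjusted p = 0.113), and Polr1b (0.07, adjusted p = 0.558), the next largest, did not pass the test.

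Ribosome assembly factors leaned slightly to rotenone in the comparison as reported. Of these, 12 were higher with CX-5461 and 19 higher with rotenone of 119 tested members (median -0.15 relative to all genes), against 8 and 29 with median-ratio scaling and 7 and 46 with the length trend removed. These became 5, 5, 6 and 1 higher with CX-5461 and 8, 8, 5 and 2 higher with rotenone without each library in turn. With a prior without trend, 7 assembly factors were higher with CX-5461 and 5 higher with rotenone. The fit of all 8 libraries gave 5 and 9. Rrp15, a factor of large subunit assembly, was at 73.97 and 73.2 TPM with CX-5461, 117 and 116 TPM with rotenone and 155 and 149 TPM in control (log2 difference -0.66, SE 0.07, adjusted p = 0.00308). Nop58, a core protein of box C/D ribonucleoproteins, was at 93.7 and 109 TPM with CX-5461, 169 and 139.6 TPM with rotenone and 86.2 and 113 TPM in control (log2 difference -0.60, SE 0.13, adjusted p = 0.0216). Ddx56, a nucleolar helicase, was at 163 and 163 TPM with CX-5461, 107 and 99.3 TPM with rotenone and 109.6 and 113 TPM in control (log2 difference 0.66, SE 0.07, adjusted p = 0.00355). Rrp15 fell below control with both drugs, whereas Ddx56 stood above control with CX-5461 and below it with rotenone. When single libraries were left out, the call was lost for Nop58 without either CX-5461 library or rotenone replicate 1 (adjusted p up to 0.0946) and Snhg17 without CX-5461 replicate 1 or either rotenone library (adjusted p up to 0.0997). Among transcripts that host small nucleolar RNAs, 5 of 22 were higher with each drug, but 2, 5, 0 and 0 were higher with rotenone without each library in turn, so that none was left without either rotenone library. Of these transcripts, Snhg15 was at 146 and 143 TPM with CX-5461, 66.9 and 70.5 TPM with rotenone and 132 and 129 TPM in control (log2 difference 1.06, SE 0.07, adjusted p = 0.00126), Snhg11 at 14.5 and 19.4 TPM with CX-5461 and 6.403 and 5.55 TPM with rotenone (1.35, SE 0.18) and Snhg17 at 30.5 and 32.7 TPM with CX-5461 and 45.6 and 42.7 TPM with rotenone (-0.47, SE 0.09). Of 163 annotated small nucleolar RNA genes, 21 were higher with CX-5461 and 20 with rotenone, against 11 and 30 with quantile scaling.

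Tubulin genes separated the drugs sharply. Of 14 tested genes of alpha and beta tubulin, the subunits of microtubules, 13 were higher with CX-5461 and 0 with rotenone, and 11 were higher with CX-5461 either with quantile scaling or with the length trend removed. Tuba3a (ENSMUSG00000067702.5, chromosome 6, 125278274 to 125286042) was at 189.8 and 183 TPM with CX-5461, 37.05 and 38.1 TPM with rotenone and 518 and 508 TPM in control (log2 difference 2.28, SE 0.07, adjusted p = 8.09e-04). Tubb3 was at 115 and 109 TPM with CX-5461, 29.8 and 25.4 TPM with rotenone and 114 and 114 TPM in control (log2 difference 1.99, SE 0.11, adjusted p = 9.53e-04), and Tubb2a at 133 and 119 TPM with CX-5461, 36.6 and 37.1 TPM with rotenone and 68.5 and 78.5 TPM in control (log2 difference 1.75, SE 0.09, adjusted p = 8.85e-04). Rotenone libraries were lowest for each of these genes, whereas CX-5461 lay below control for Tuba3a, on both sides of control for Tubb3 and above it for Tubb2a. The 15 alpha and beta genes together summed to 5268 and 5099 TPM with CX-5461, 2331 and 2228 TPM with rotenone, and 6573 and 6781 TPM in control, a ratio of 2.27 between the drugs. Tuba8, the member not called, was at 2.32 and 1.81 TPM with CX-5461 and 2.07 and 2.59 TPM with rotenone (adjusted p = 0.668).

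The abundant tubulins of ES cells followed the same order. Tubb5 was at 1116 and 1102 TPM with CX-5461, 507 and 505 TPM with rotenone and 1834 and 1951 TPM in control (1.13, SE 0.05), and Tuba1b at 823 and 821 TPM with CX-5461, 403 and 389 TPM with rotenone and 1484 and 1450.2 TPM in control (1.05, SE 0.05), so that both drugs lay below control. These 2 genes were chosen for their abundance after the values were seen. Gamma, delta and epsilon tubulins, which act at centrosomes, did not pass the test, with differences from -0.01 to 0.19 over the 4 genes. Genes of the stathmin family, which sequester tubulin, had the reverse order. Stmn3 was at 5.61 and 4.16 TPM with CX-5461, 15.6 and 16.96 TPM with rotenone and 13.5 and 10.7 TPM in control (log2 difference -1.56, SE 0.17, adjusted p = 0.00384), Stmn2 had a difference of -1.46 and Stmn1 one of -0.40. Ttc5, which encodes the ribosome-bound adaptor of tubulin mRNA decay, was at 52.8 and 53.5 TPM with CX-5461 and 67.6 and 63.7 TPM with rotenone (-0.30, SE 0.08, adjusted p = 0.0382). Some tubulin genes are near-identical, and only uniquely mapped reads were kept, so the levels of Tuba1a, Tuba1b, Tuba1c, Tuba3a and Tuba3b are uncertain.

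**Figure D4:**
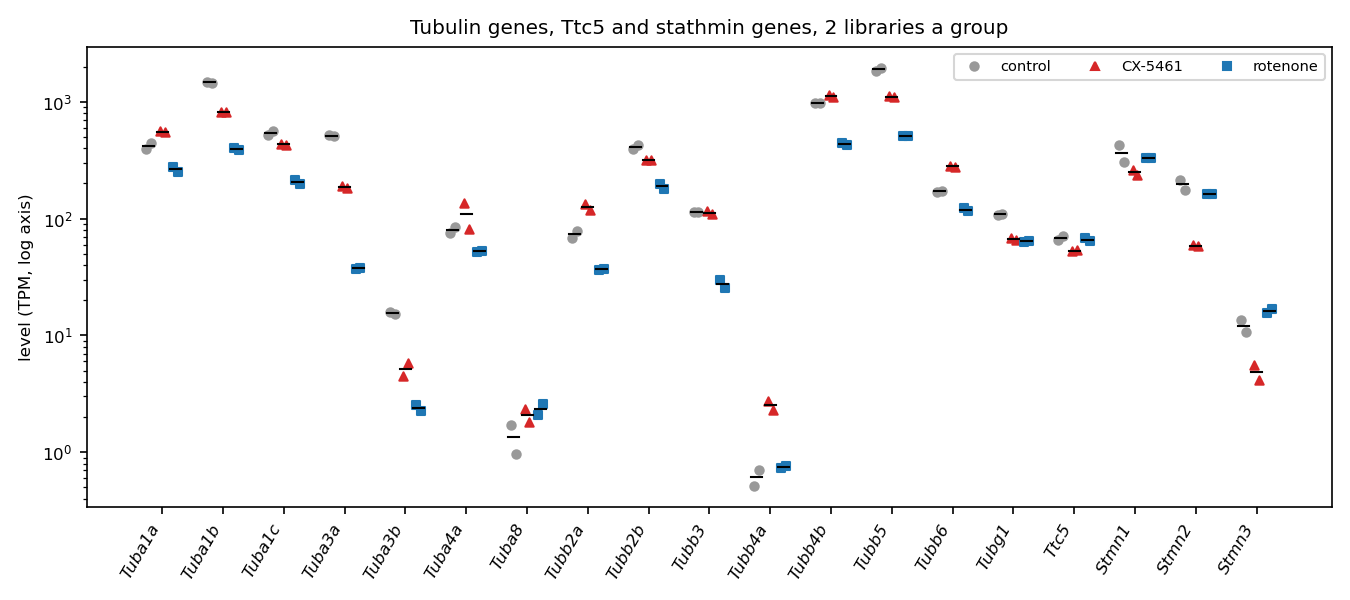
Levels in TPM (log axis) of tubulin, Ttc5 and stathmin genes in the 2 libraries of each group, with black bars for group means. For 13 alpha and beta tubulin genes both rotenone squares lie below both CX-5461 triangles, for example Tubb3 at 115 and 109 TPM with CX-5461 and 29.8 and 25.4 TPM with rotenone. Tubg1 nearly coincides, and the stathmin genes lie the other way round.

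Targets of p53 were higher with CX-5461. Among targets in arrest and feedback, 17 were higher with CX-5461 and 3 higher with rotenone of 26 tested members (median 0.50 relative to all genes). Among those in cell death, 16 were higher with CX-5461 and 2 higher with rotenone of 22 tested members (median 0.70 relative to all genes). Among those in repair and metabolism, 13 were higher with CX-5461 and 1 higher with rotenone of 26 tested members (median 0.33 relative to all genes). Most lay above the shared control with either drug. Of the arrest and feedback targets, 20 lay above control and 2 below it with CX-5461, and 19 above and 1 below with rotenone. Of the cell death targets, 17 lay above control and 1 below it with CX-5461, and 14 above and 2 below with rotenone. The counts higher with CX-5461 were 17, 15 and 13 in these 3 lists with either median-ratio or quantile scaling.

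Among arrest genes, Sfn, which encodes 14-3-3 sigma and is also an epidermal gene, was at 87.4 and 73.1 TPM with CX-5461, 12.8 and 12.6 TPM with rotenone and 15.04 and 14.5 TPM in control (log2 difference 2.56, SE 0.12, adjusted p = 8.09e-04). Ddit4l, a brake on mTOR signalling, was at 120.0 and 126 TPM with CX-5461, 25.2 and 24.04 TPM with rotenone and 8.04 and 8.31 TPM in control (log2 difference 2.27, SE 0.08, adjusted p = 8.09e-04). Ccng2, an atypical cyclin, was at 54.3 and 60.6 TPM with CX-5461, 15.6 and 13.4 TPM with rotenone and 10.1 and 11.4 TPM in control (1.92, SE 0.12). With rotenone Sfn lay just below control, and Ddit4l and Ccng2 lay between control and CX-5461. Cdkn1a, the cell cycle inhibitor p21, was at 1171 and 1145 TPM with CX-5461 and 544 and 529 TPM with rotenone (1.11, SE 0.05), and Mdm2, the ligase that degrades p53, at 399 and 420.4 TPM with CX-5461 and 292 and 291 TPM with rotenone (0.49, SE 0.06). Both were looked up after the counts were seen. Members on the other side were Cop1, a ubiquitin ligase for p53, at 28.1 and 26.1 TPM with CX-5461 and 54.3 and 46.6 TPM with rotenone (log2 difference -0.87, SE 0.11, adjusted p = 0.00549), and the cycle genes Gas2l3 (-0.79) and Cdc25c (-0.71). The mRNA of Trp53 itself differed by -0.05 (adjusted p = 0.505).

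Among cell death genes, Pmaip1, which encodes the BH3 protein NOXA, was at 171 and 162 TPM with CX-5461, 35.7 and 36.6 TPM with rotenone and 11.5 and 11.4 TPM in control (log2 difference 2.18, SE 0.07, adjusted p = 8.09e-04). Perp, a desmosomal p53 target, was at 229 and 214 TPM with CX-5461, 41.3 and 40.98 TPM with rotenone and 16.5 and 15.00 TPM in control (log2 difference 2.40, SE 0.07, adjusted p = 8.09e-04). Tnfrsf18, a receptor of the tumour necrosis factor family, was at 19.96 and 17.9 TPM with CX-5461, 2.66 and 2.36 TPM with rotenone and 0.662 and 0.901 TPM in control (log2 difference 2.51, SE 0.15, adjusted p = 0.00101). All 3 stood above control with rotenone as well, at lower levels. Fas, the death receptor, had a difference of 1.97 and Bbc3, which encodes PUMA, one of 1.06. Bax, the pore-forming effector, did not pass the test, at 577 and 522 TPM with CX-5461 and 528 and 515 TPM with rotenone (adjusted p = 0.441), and Bnip3 and Bid (-0.42) were higher with rotenone. In the third list Tap1, a peptide transporter, was at 92.2 and 104 TPM with CX-5461, 22.7 and 21.3 TPM with rotenone and 6.69 and 8.24 TPM in control (log2 difference 2.11, SE 0.10, adjusted p = 8.09e-04), and Ephx1, an epoxide hydrolase, at 341 and 331 TPM with CX-5461, 138 and 144 TPM with rotenone and 56.5 and 51.5 TPM in control (1.24, SE 0.06), whereas Rev3l, the catalytic subunit of polymerase zeta, had the reverse order (-0.49, SE 0.14, adjusted p = 0.0484), a call lost with the length trend removed (adjusted p = 0.0763). Leaving out libraries, the call was lost for Rev3l without either CX-5461 library or rotenone replicate 2 (adjusted p up to 0.191).

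**Figure D5:**
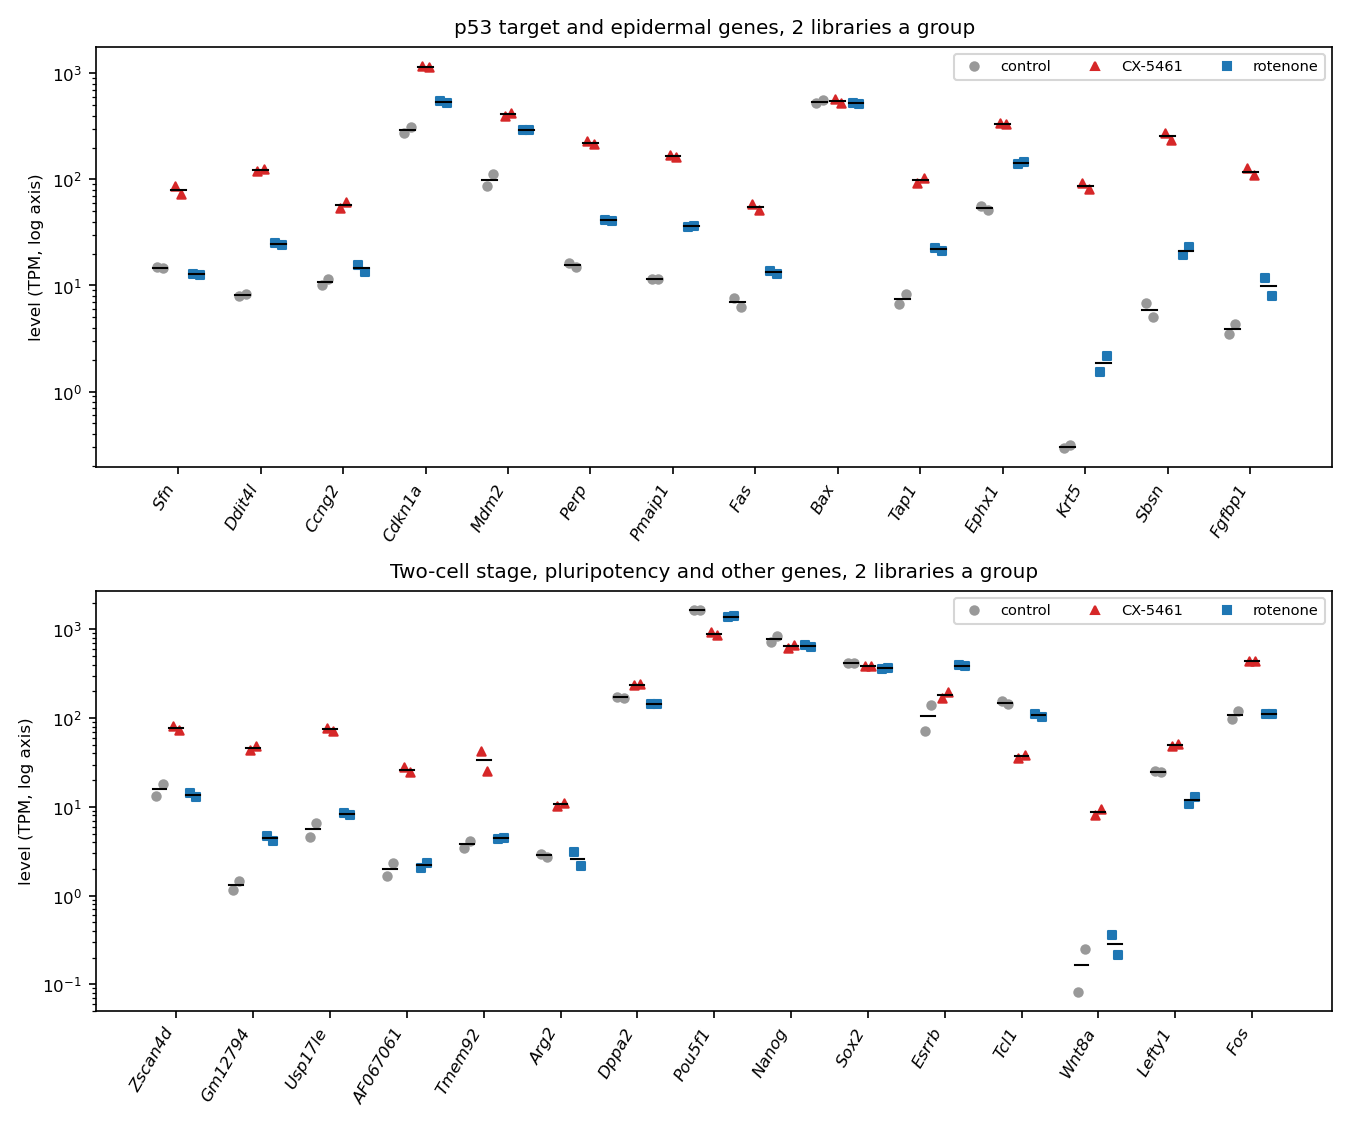
Levels in TPM (log axis) in the 2 libraries of each group, with black bars for group means: p53 targets and epidermal genes above, 2-cell stage, pluripotency and other genes below. In the upper panel all genes but Bax have CX-5461 highest, with rotenone between control and CX-5461 for most and Sfn at 12.8 and 12.6 TPM with rotenone. In the lower panel Zscan4d is at 80.6 and 73.2 TPM with CX-5461 and 14.3 and 13.02 TPM with rotenone, and Pou5f1, Esrrb and Tcl1 are lower with CX-5461 than with rotenone.

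Genes of DNA damage signalling and repair were split. In this list 9 were higher with CX-5461 and 5 higher with rotenone of 48 tested members (median -0.06 relative to all genes), against 6 and 10 with median-ratio scaling, 7 and 10 with quantile scaling and 7 and 11 with the length trend removed. Without each library in turn, 5, 6, 3 and 3 were higher with CX-5461 and 3, 5, 0 and 1 higher with rotenone. Rad51c, a recombination factor, was at 11.9 and 11.6 TPM with CX-5461 and 6.097 and 6.32 TPM with rotenone (log2 difference 0.82, SE 0.13, adjusted p = 0.00984). Rad50, of the complex that senses broken ends, was at 51.8 and 46.5 TPM with CX-5461, 33.03 and 29.1 TPM with rotenone and 18.5 and 20.96 TPM in control (log2 difference 0.65, SE 0.11, adjusted p = 0.0114), and Trp53bp1 at 36.9 and 43.5 TPM with CX-5461 and 25.9 and 25.5 TPM with rotenone (0.62, SE 0.11). Tdp1, which frees topoisomerase I from DNA, was at 36.1 and 31.6 TPM with CX-5461 and 52.7 and 49.5 TPM with rotenone (log2 difference -0.58, SE 0.10, adjusted p = 0.013). The topoisomerase II genes Top2a (0.54) and Top2b (0.52) were both higher with CX-5461. On leaving out libraries, the call was lost for Rad51c without CX-5461 replicate 1 (adjusted p = 0.0542), Rad50 without CX-5461 replicate 1 or rotenone replicate 2 (adjusted p up to 0.0585), Trp53bp1 without either rotenone library (adjusted p up to 0.0652) and Tdp1 without either rotenone library (adjusted p up to 0.0698).

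Genes of mitosis leaned to rotenone, whereas the median of replication genes lay near that of all genes. Among mitosis genes, 8 were higher with CX-5461 and 29 higher with rotenone of 55 tested members (median -0.41 relative to all genes). With 1 library left out, the counts were 8, 7, 5 and 5 higher with CX-5461 and 16, 18, 8 and 11 higher with rotenone. Racgap1, a regulator of cytokinesis, was at 77.6 and 77.7 TPM with CX-5461, 153 and 128 TPM with rotenone and 102 and 121 TPM in control (log2 difference -0.84, SE 0.10, adjusted p = 0.00461), and Cdc25c, a phosphatase of mitotic entry, at 27.8 and 24.8 TPM with CX-5461, 44.7 and 42.7 TPM with rotenone and 40.3 and 42.5 TPM in control (log2 difference -0.71, SE 0.10, adjusted p = 0.00699). For both genes CX-5461 lay below control. Spc25, a kinetochore subunit, was at 161 and 165 TPM with CX-5461, 105 and 103 TPM with rotenone and 134 and 119 TPM in control (log2 difference 0.64, SE 0.06, adjusted p = 0.00303), and Ube2c (0.50) and Cdk1 (0.50) were also higher with CX-5461. Among replication and S phase genes, 15 were higher with CX-5461 and 3 higher with rotenone of 52 tested members (median -0.04 relative to all genes), against 11 and 8 with median-ratio scaling and 11 and 15 with the length trend removed. In the fits without 1 library, 10, 12, 8 and 6 were higher with CX-5461 and 2, 5, 2 and 3 higher with rotenone. Ccne2, cyclin E2, was at 18.2 and 24.98 TPM with CX-5461 and 10.9 and 8.75 TPM with rotenone (log2 difference 1.05, SE 0.20, adjusted p = 0.0152), Rfc2 of the clamp loader at 55.5 and 61.6 TPM with CX-5461 and 35.3 and 35.5 TPM with rotenone (log2 difference 0.71, SE 0.09, adjusted p = 0.00549) and Uhrf1, which guides maintenance of DNA methylation, at 288 and 311 TPM with CX-5461, 546 and 515 TPM with rotenone and 360.4 and 475 TPM in control (log2 difference -0.82, SE 0.07, adjusted p = 0.00195). The call was lost for Ccne2 without CX-5461 replicate 2 or rotenone replicate 2 (adjusted p up to 0.0628).

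Replication-dependent histone genes were higher with CX-5461. Of these, 20 were higher with CX-5461 and 0 higher with rotenone of 42 tested members (median 0.54 relative to all genes), against 8 and 0 with quantile scaling. Leaving out each library left 6, 6, 11 and 14 higher with CX-5461. Of the members tested, 5 reached 1 TPM in the CX-5461 libraries alone. Hist1h3b was at 6.54 and 6.76 TPM with CX-5461 and 1.38 and 1.05 TPM with rotenone (log2 difference 1.79, SE 0.17, adjusted p = 0.00283), and Hist2h3c1 at 9.45 and 8.54 TPM with CX-5461 and 2.87 and 1.09 TPM with rotenone (log2 difference 1.81, SE 0.32, adjusted p = 0.0128). Slbp, which binds the stem-loop of these messages, had a difference of 0.71. The messages lack a poly-A tail and have near-identical copies, so these low levels are uncertain. When single libraries were left out, the call was lost for Hist2h3c1 without either CX-5461 library (adjusted p up to 0.079).

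Genes of the 2-cell stage, when the embryonic genome is first transcribed, showed the strongest lean towards CX-5461. Of 68 members, 53 passed the level filter, 5 of them through the CX-5461 libraries alone, and 48 were higher with CX-5461 and 0 higher with rotenone (median 1.72 relative to all genes). Without families of near-identical copies, taken by name in a choice made after seeing the data, 14 of 17 tested members were higher with CX-5461 (relative median 0.97). Against control, 51 lay above control and 1 below it with CX-5461, and 15 above and 2 below with rotenone. The list summed to 3433 and 3233 TPM with CX-5461, 1324 and 1287 TPM with rotenone, and 1320.5 and 1341 TPM in control, so that the rotenone libraries overlapped control.

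Zscan4d, a marker of 2-cell-like ES cells that protects telomeres, was at 80.6 and 73.2 TPM with CX-5461, 14.3 and 13.02 TPM with rotenone and 13.3 and 18.1 TPM in control (log2 difference 2.41, SE 0.10, adjusted p = 8.09e-04). Gm12794, which the study follows, was at 43.3 and 48.8 TPM with CX-5461, 4.695 and 4.14 TPM with rotenone and 1.16 and 1.48 TPM in control (log2 difference 3.12, SE 0.13, adjusted p = 8.09e-04). The deubiquitinase gene Usp17le was at 76.9 and 72.4 TPM with CX-5461, 8.51 and 8.19 TPM with rotenone and 4.59 and 6.58 TPM in control (3.02, SE 0.10), and AF067061 at 27.9 and 24.6 TPM with CX-5461, 2.04 and 2.33 TPM with rotenone and 1.65 and 2.33 TPM in control (3.10, SE 0.15). Zscan4d and AF067061 overlapped control with rotenone, whereas Gm12794 lay above control with both drugs, by 4.34 (SE 0.30, adjusted p = 7.26e-05) with CX-5461 and 1.23 (SE 0.30, adjusted p = 0.0171) with rotenone. Duxf3, the Dux factor that activates these genes, was listed at 0 in both rotenone libraries and at 0.102 and 0 TPM with CX-5461, and was not tested. It was listed at 0 in both control libraries as well. Only uniquely mapped reads were kept, so these values do not show whether Dux was expressed. The study reports that CX-5461 activated Dux and that rotenone did not influence it. Dppa2, an upstream regulator of Dux in mouse ES cells, had a difference of 0.73 and its partner Dppa4 one of 0.66.

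Pluripotency genes were more often higher with rotenone than genes in general, and were called higher with CX-5461 about as often. Of these, 9 were higher with CX-5461 and 14 higher with rotenone of 42 tested members (median -0.19 relative to all genes). These became 11, 13, 9 and 8 higher with rotenone without each library in turn. Pou5f1, the core factor OCT4, was at 926 and 861 TPM with CX-5461, 1380.2 and 1395 TPM with rotenone and 1631 and 1649.5 TPM in control (log2 difference -0.64, SE 0.06, adjusted p = 0.0026). Tcl1, a co-activator of AKT, was at 35.9 and 38.6 TPM with CX-5461, 112 and 104 TPM with rotenone and 155 and 143 TPM in control (log2 difference -1.51, SE 0.09, adjusted p = 9.91e-04), and Esrrb, a naive pluripotency factor, at 167 and 195 TPM with CX-5461, 398 and 381 TPM with rotenone and 71.1 and 141 TPM in control (log2 difference -1.11, SE 0.09, adjusted p = 0.00194). Pou5f1 and Tcl1 were lowest with CX-5461, whereas Esrrb lay above control in both treatments and highest with rotenone. Nanog (-0.02, adjusted p = 0.803) and Sox2 (0.09, adjusted p = 0.245) did not pass the test. Gbx2, a homeobox gene downstream of LIF, was at 61.8 and 64.1 TPM with CX-5461, 28.96 and 24.4 TPM with rotenone and 60.9 and 61.8 TPM in control (log2 difference 1.21, SE 0.11, adjusted p = 0.00243) and so was low with rotenone.

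Genes of the formative and primed epiblast were higher with CX-5461. In this list 12 were higher with CX-5461 and 0 higher with rotenone of 20 tested members (median 0.65 relative to all genes), and 12 and 1 with quantile scaling. Wnt8a was at 8.12 and 9.58 TPM with CX-5461, 0.357 and 0.216 TPM with rotenone and 0.0819 and 0.248 TPM in control (log2 difference 2.93, SE 0.18, adjusted p = 0.00115), and Wnt3 at 10.9 and 9.31 TPM with CX-5461, 0.986 and 1.195 TPM with rotenone and 0.697 and 0.558 TPM in control (log2 difference 2.40, SE 0.17, adjusted p = 0.00149), both ligands of the primitive streak. Sox3 was at 24.9 and 22.4 TPM with CX-5461, 2.89 and 4.93 TPM with rotenone and 6.81 and 7.14 TPM in control (log2 difference 2.35, SE 0.23, adjusted p = 0.0029). The Nodal pathway genes Lefty1 (1.97), Lefty2 (1.49) and Nodal (1.47) took the same side. Among targets of Wnt itself, 8 were higher with CX-5461 and 2 higher with rotenone of 19 tested members (median 0.28 relative to all genes). Without each library in turn, 5, 5, 7 and 5 were higher with CX-5461, and with quantile scaling 5 and 3 were. Sp5 was at 151 and 147 TPM with CX-5461, 58.3 and 54.2 TPM with rotenone and 98.2 and 98.6 TPM in control (log2 difference 1.39, SE 0.07, adjusted p = 9.53e-04) and the antagonist Dkk1 at 3.58 and 3.37 TPM with CX-5461 and 0.625 and 0.735 TPM with rotenone (1.41, SE 0.17), against Cdx1 at 108 and 104 TPM with CX-5461, 161 and 167 TPM with rotenone and 156 and 160.1 TPM in control (log2 difference -0.62, SE 0.07, adjusted p = 0.00348).

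Markers of epithelia formed a further group on the CX-5461 side. Among keratin and epidermal genes, 15 were higher with CX-5461 and 0 higher with rotenone of 19 tested members (median 1.11 relative to all genes). Of these members, 4 passed the filter through CX-5461 alone. Krt15, a basal keratin, was at 22.01 and 18.7 TPM with CX-5461 and 1.69 and 1.39 TPM with rotenone and was listed at 0 in control (log2 difference 3.07, SE 0.16, adjusted p = 9.53e-04). The list summed to 641 and 611 TPM with CX-5461, 186 and 173 TPM with rotenone, and 81.96 and 99.6 TPM in control, a ratio of 3.48 between the drugs. That of the 40 fibroblast markers was 1.17. Among trophectoderm markers, 8 were higher with CX-5461 and 3 higher with rotenone of 19 tested members (median 0.41 relative to all genes). The summed level of that list had a ratio of 1.02 between the drugs. The 6 defining trophectoderm markers summed to a ratio of 2.89. With 1 library left out, the counts were 5, 5, 7 and 8 higher with CX-5461. Krt7 was at 26.9 and 20.9 TPM with CX-5461, 1.89 and 1.51 TPM with rotenone and 0.571 and 0.319 TPM in control (log2 difference 3.20, SE 0.18, adjusted p = 9.91e-04) and the claudin gene Cldn6 at 24.9 and 21.9 TPM with CX-5461, 4.06 and 2.48 TPM with rotenone and 1.802 and 1.39 TPM in control (log2 difference 2.54, SE 0.22, adjusted p = 0.00214), while Tead4, a factor that specifies the lineage, had the reverse order at 10.2 and 13.00 TPM with CX-5461, 38.9 and 32.7 TPM with rotenone and 24.03 and 24.7 TPM in control (log2 difference -1.55, SE 0.16, adjusted p = 0.00327). Cdx2 (1.18) was higher with CX-5461, and Gata2 (-1.28) higher with rotenone.

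By count, other lineage markers leaned the same way. The primitive endoderm list summed to a ratio of 1.10 between the drugs and the germline list to 1.73, beside 1.17 for fibroblast markers. The 5 defining primitive endoderm markers summed to a ratio of 1.86. Among primitive endoderm markers, 7 were higher with CX-5461 and 1 higher with rotenone of 19 tested members (median 0.17 relative to all genes). In the fits without 1 library, 5, 4, 5 and 5 were higher with CX-5461. Gata6 was at 11.6 and 12.3 TPM with CX-5461, 3.62 and 4.27 TPM with rotenone and 0.753 and 0.5402 TPM in control (log2 difference 1.39, SE 0.15, adjusted p = 0.00361) and Sox17 at 5.62 and 6.18 TPM with CX-5461, 1.08 and 1.39 TPM with rotenone and 0.342 and 1.11 TPM in control (log2 difference 1.63, SE 0.18, adjusted p = 0.00367), both factors of that lineage, whereas Gata4 did not pass the test (-0.08, adjusted p = 0.768) and the laminin gene Lama1 was at 18.2 and 22.7 TPM with CX-5461 and 38.8 and 38.5 TPM with rotenone (-0.90, SE 0.13). Among germline genes, 12 were higher with CX-5461 and 1 higher with rotenone of 20 tested members (median 0.60 relative to all genes). Of these members, 2 passed the filter through CX-5461 alone. The dipeptidase gene Dpep3 was at 20.5 and 13.5 TPM with CX-5461, 1.71 and 1.36 TPM with rotenone and 0.996 and 1.28 TPM in control (log2 difference 2.80, SE 0.24, adjusted p = 0.002), Tex19.2, a germ cell gene, at 8.601 and 8.43 TPM with CX-5461 and 1.11 and 1.31 TPM with rotenone (2.11, SE 0.16) and Dazl, an RNA-binding protein of germ cells, at 39.2 and 39.1 TPM with CX-5461 and 56.3 and 47.5 TPM with rotenone (-0.39, SE 0.11). On leaving out libraries, the call was lost for Dazl without any 1 of the 4 libraries (adjusted p up to 0.196).

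Fibroblast markers, which could come from feeder cells, moved towards CX-5461 by a smaller amount. In this list 19 were higher with CX-5461 and 3 higher with rotenone of 40 tested members (median 0.19 relative to all genes), against 12 and 5 with median-ratio scaling. Leaving out each library left 14, 10, 9 and 13 higher with CX-5461 and 3, 5, 2 and 2 higher with rotenone. The list summed to 6855 and 7065 TPM with CX-5461, 5782 and 6166 TPM with rotenone, and 1934 and 2173 TPM in control. Eln, elastin, was at 17.3 and 14.6 TPM with CX-5461, 4.99 and 5.82 TPM with rotenone and 3.61 and 4.73 TPM in control (log2 difference 1.40, SE 0.16, adjusted p = 0.00391), and Nt5e, the surface enzyme CD73, at 13.3 and 12.1 TPM with CX-5461, 4.701 and 3.85 TPM with rotenone and 1.18 and 2.54 TPM in control (1.38, SE 0.16). Tgfbi, an extracellular matrix protein, was at 10.5 and 8.44 TPM with CX-5461, 18.8 and 20.03 TPM with rotenone and 9.08 and 10.6 TPM in control (log2 difference -0.97, SE 0.15, adjusted p = 0.00873). Against control 38 of 40 markers lay higher with CX-5461 and 37 with rotenone, so these markers moved with both drugs, and its part in groups that fibroblasts also express, such as immediate early, interferon and lysosome genes, was not tested.

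Immediate early genes, the first to answer growth factor and stress signals, were higher with CX-5461. Of these, 26 were higher with CX-5461 and 0 higher with rotenone of 37 tested members (median 0.45 relative to all genes), and 21 and 1 with quantile scaling. Fos was at 441 and 438 TPM with CX-5461, 112 and 111 TPM with rotenone and 98.3 and 121 TPM in control (log2 difference 1.97, SE 0.06, adjusted p = 8.09e-04) and Fosb at 86.3 and 89.7 TPM with CX-5461, 20.9 and 22.8 TPM with rotenone and 15.5 and 25.3 TPM in control (log2 difference 1.96, SE 0.09, adjusted p = 8.09e-04), both AP-1 subunits. With rotenone Fos and Fosb lay within the range of control, unlike most of the list. Of its members, 34 lay above control and 1 below it with CX-5461, and 28 above and 2 below with rotenone. Spry4, a feedback inhibitor of ERK signalling, was at 19.7 and 21.4 TPM with CX-5461, 4.77 and 5.73 TPM with rotenone and 2.98 and 3.52 TPM in control (1.79, SE 0.14), and the ERK phosphatase genes Dusp5 (1.52) and Dusp6 (1.08) took the same side. The list summed to a ratio of 1.63 between the drugs, beside 1.17 for fibroblast markers.

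Interferon and RNA sensor genes were also higher with CX-5461. In this list 19 were higher with CX-5461 and 0 higher with rotenone of 30 tested members (median 0.60 relative to all genes). These became 5, 7, 21 and 11 higher with CX-5461 without each library in turn. Usp18, a protease of the ubiquitin-like ISG15, was at 137 and 118 TPM with CX-5461, 50.5 and 30.3 TPM with rotenone and 21.3 and 32.1 TPM in control (log2 difference 1.67, SE 0.24, adjusted p = 0.0078). Ifit3, an antiviral effector, was at 98.5 and 85.4 TPM with CX-5461, 42.5 and 27.5 TPM with rotenone and 12.97 and 13.4 TPM in control (log2 difference 1.40, SE 0.21, adjusted p = 0.00865), and Mx1 at 6.83 and 6.76 TPM with CX-5461 and 2.03 and 1.41 TPM with rotenone (1.53, SE 0.19). The rotenone libraries differed from each other for these genes, as at 42.5 and 27.5 TPM for Ifit3. The receptor gene Tlr3 had a difference of 0.95 and the RNA sensor gene Ifih1 one of 0.91. The call was lost for Usp18 without CX-5461 replicate 1 (adjusted p = 0.0598) and Ifit3 without CX-5461 replicate 1 (adjusted p = 0.0633).

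Protein folding genes of the endoplasmic reticulum leaned to CX-5461. In this list 12 were higher with CX-5461 and 1 higher with rotenone of 25 tested members (median 0.19 relative to all genes), against 6 and 2 with the length trend removed. Without each library in turn, 9, 10, 6 and 7 were higher with CX-5461. Dnajb9, a co-chaperone, was at 68.1 and 69.8 TPM with CX-5461, 31.5 and 30.8 TPM with rotenone and 27.1 and 25.04 TPM in control (log2 difference 1.12, SE 0.08, adjusted p = 0.00146), and Syvn1, the ubiquitin ligase HRD1, at 68.3 and 68.3 TPM with CX-5461, 36.7 and 30.5 TPM with rotenone and 21.9 and 34.3 TPM in control (log2 difference 1.01, SE 0.11, adjusted p = 0.00384). Herpud1, which acts in the same degradation pathway, was at 29.6 and 29.1 TPM with CX-5461, 48.2 and 54.6 TPM with rotenone and 27.2 and 31.9 TPM in control (log2 difference -0.78, SE 0.10, adjusted p = 0.00529) and thus near control with CX-5461. Cytosolic heat shock genes were split, in that 8 were higher with CX-5461 and 3 higher with rotenone of 22 tested members (median -0.01 relative to all genes), against 5 and 6 with the length trend removed. With 1 library left out, the counts were 6, 7, 5 and 5 higher with CX-5461. The inducible Hsp70 genes Hspa1a, at 30.7 and 29.6 TPM with CX-5461, 7.08 and 7.32 TPM with rotenone and 2.41 and 3.28 TPM in control (log2 difference 1.93, SE 0.11, adjusted p = 9.91e-04), and Hspa1b (1.64) were higher with CX-5461, whereas the Hsp90 co-chaperone gene Fkbp4 was at 461 and 449 TPM with CX-5461, 643 and 631 TPM with rotenone and 803 and 861 TPM in control (log2 difference -0.48, SE 0.05, adjusted p = 0.00391). Hspa1a and Hspa1b are near-identical, so their levels are uncertain.

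Lysosome and autophagy genes lay near the median of all genes. Of these, 15 were higher with CX-5461 and 4 higher with rotenone of 49 tested members (median -0.03 relative to all genes), against 9 and 14 with the length trend removed. In the fits without 1 library, 13, 12, 5 and 7 were higher with CX-5461 and 3, 4, 3 and 2 higher with rotenone. The cathepsin gene Ctsf was at 44.3 and 39.1 TPM with CX-5461, 18.7 and 16.4 TPM with rotenone and 23.3 and 24.4 TPM in control (log2 difference 1.21, SE 0.12, adjusted p = 0.00301) and Gusb, the lysosomal glucuronidase, at 86.2 and 84.5 TPM with CX-5461, 51.7 and 53.4 TPM with rotenone and 39.8 and 39.8 TPM in control (log2 difference 0.69, SE 0.07, adjusted p = 0.00347). Fnip2, a partner of folliculin, was at 23.2 and 23.01 TPM with CX-5461, 49.5 and 48.8 TPM with rotenone and 11.9 and 14.9 TPM in control (log2 difference -1.06, SE 0.08, adjusted p = 0.00186), above control in both treatments and highest with rotenone. Among brakes on mTOR signalling, 5 were higher with CX-5461 and 0 higher with rotenone of 21 tested members (median -0.06 relative to all genes). Leaving out each library left 3, 2, 3 and 2 higher with CX-5461. Ddit4l and Ddit4 had the largest differences of these. Nprl2, a subunit of the GATOR1 complex, was at 17.4 and 20.1 TPM with CX-5461, 13.1 and 10.5 TPM with rotenone and 21.05 and 19.06 TPM in control (0.63, SE 0.15, adjusted p = 0.0327), a call lost with quantile scaling and without the length trend (adjusted p = 0.0706 and 0.0984). Leaving out libraries, the call was lost for Nprl2 without either CX-5461 library or rotenone replicate 2 (adjusted p up to 0.132). Sesn2 and the kinase gene Mtor (-0.13, adjusted p = 0.47) did not pass the test.

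Transcripts annotated as lincRNA were counted by direction, and the split depended on the scaling. Of 408 such genes, 122 (29.9%) were higher with CX-5461 and 13 higher with rotenone, against 61 and 39 with quantile scaling. Of 372 annotated as antisense, 92 (24.7%) were higher with CX-5461, a share near that of all genes, and 18 higher with rotenone, against 37 and 40 with quantile scaling. Without a stated use of strand in counting, reads of an antisense gene and of its partner cannot be told apart. Of 1178 processed pseudogenes, 119 were higher with CX-5461 and 115 higher with rotenone, against 63 and 246 with quantile scaling.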

How the data were processed

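RNA-seq of mouse ES cells was analysed for 2 libraries treated with CX-5461 and 2 with rotenone, and 2 control libraries are shown beside them. The deposited values are TPM that the authors made per library: by their methods Trimmomatic cut the reads, HISAT2 placed them on mm10, Picard took out duplicates, and uniquely mapped reads were quantified on a GENCODE annotation of GRCm38 with StringTie. The submitters' processing notes also name CASAVA 1.8. Libraries were not pooled. Reads that fit several copies of a gene were thus left out, and TPM keeps no read depth, so no counting interval can be given. Embryo libraries of the series were not used here.

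Each library was rescaled to 1000000 TPM. Genes with at least 1 TPM in at least 2 of the 4 libraries were tested on log2(TPM + 1) with limma 3.58.1 in R 4.3.3 (two-sided, with an intensity trend, 2 residual degrees of freedom, Benjamini-Hochberg over all tested genes, threshold 0.05). The test was tried on simulated data. Differences from control, which share the control libraries, came from a fit of all 8 ES cell libraries, which include 2 of rapamycin. Other pseudocounts, filters, scalings, priors and samples were tried as alternatives.

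The lists and members were chosen with earlier results of these data known, and no list was tested. A rule for naming gave the 12 genes with the largest differences in each direction among called genes whose higher group averaged 5 TPM or more. It also gave the 3 called members of each list with the largest differences and at least 1 in each direction, and Zscan4d, Gm12794, Duxf3 and Pou5f1. Of the genes that it gave, Snhg20, Mrpl41, Mrpl57, Cat, Cpt1c, Fst, Tex101, T, Hspa2, Derl3, Gaa and Hist2h2aa1 are not described above. Among these, the calls of Snhg20, Mrpl57, Derl3 and Hist2h2aa1 were lost with quantile scaling. The other genes named were chosen after their values were seen: Trib3, Aldh18a1, Pycr1, Gpt2, Atf4, Atf5, Gadd45a, Ddit3, Sesn2, Gdf15, Phgdh, Asns, Hars2, Wars2, Slc16a3, Eno2, Sod2, mt-Co1, mt-Co2, mt-Nd1, Hspa9, Ubtf, Cd3eap, Polr2e, Polr1a, Polr1b, Tuba8, Tubb5, Tuba1b, Tubg2, Tubd1, Stmn2, Stmn1, Ttc5, Cdkn1a, Mdm2, Gas2l3, Trp53, Fas, Bbc3, Bax, Bid, Top2a, Top2b, Ube2c, Cdk1, Slbp, Dppa2, Dppa4, Nanog, Sox2, Lefty1, Lefty2, Nodal, Cdx2, Gata2, Gata4, Dusp5, Dusp6, Tlr3, Ifih1, Mtor and Gusb. Promoter sequences are from RefSeq on GRCm38.p6.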

Additional observations from a re-analysis of the deposited data

How the results depend on the processing

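Of the 154 tested genes that the naming rule gave, none changed direction under any of 16 alternatives. Of these, 114 kept their call in every alternative that they entered except a minimum log2 fold of 1, and 44 kept it there too. The counts of called genes moved more. That minimum left 252 called genes, 241 higher with CX-5461 and 11 higher with rotenone. With no filter on low levels 930 genes were higher with rotenone, and with the fit of all 8 ES cell libraries 902. Quantile scaling gave 2633 genes higher with CX-5461 and 2658 higher with rotenone, and removing the exon length trend gave 3064 higher with rotenone. Leaving out 1 library, by construction a smaller sample, gave 2803 to 3117 called genes, 2076 to 2446 higher with CX-5461 and 567 to 1041 higher with rotenone. Cause was not tested for the other shifts.

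With the replicate number as a replicate block, the 4 libraries gave 4881 called genes and the 8 ES cell libraries 3039, of which 2460 were higher with CX-5461 and 579 higher with rotenone. Libraries with the same number did not deviate together (r = -0.0359 across 16995 genes, which are not independent), and the labels give the numbers no other meaning, so they do not pair the samples.

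With 2 libraries a group, 2 residual degrees of freedom and unknown read depth, differences of genes near 1 TPM are the least certain. Leaving out the families of near-identical copies, an alternative chosen after seeing the data, moved the median of the 2-cell list from 1.72 to 0.97 relative to all genes.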
